A study of Homo sapiens with 8 samples.

Results

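The SLC25 family comprises the mitochondrial carriers, membrane proteins that exchange nucleotides, phosphate, carboxylates, amino acids, cofactors and iron between the mitochondrial matrix and the cytosol. Members were taken from the count tables by name alone, as protein-coding genes whose symbol is SLC25A followed by a number, which gave 48 of the 58302 gene identifiers listed. Expression was compared in them between subconfluent and postconfluent cultures of each of 2 Flag-tagged lines.

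The cells were Caco-2/15, an established line from a human colon cancer whose cultures acquire traits of absorptive enterocytes once they are confluent. The Z1flag line carries a Flag epitope tag at the end of 1 copy of H2AFZ, the gene for the histone variant H2A.Z.1. The Z2flag line carries the same tag on 1 copy of H2AFV, the gene for H2A.Z.2. Both tags were introduced by CRISPR-Cas9 editing, and the study asks what each H2A.Z isoform contributes to the expression changes of differentiation. Each line was harvested subconfluent (Sc) and 7 days postconfluent (Pc), giving 4 groups of 2 RNA-seq libraries. All 8 libraries carried a tagged allele, none was untagged, and the sources used here do not say whether a line is 1 clone or a pool. The 2 libraries of a group are titled Exp1 and Exp2. Whether these were separate cultures is not stated, so the p-values measure the spread between these samples, which may be technical.

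Most SLC25 proteins are built from repeats of paired transmembrane helices and work as exchangers, so that the import of one solute is tied to the export of another. They set the supply of ADP and phosphate to ATP synthase, pass reducing equivalents through the malate-aspartate shuttle, and move citrate, acylcarnitine and cofactors for lipid and one-carbon metabolism. In the intestinal epithelium, absorptive enterocytes depend on mitochondria for energy and for handling absorbed fat and amino acids.

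Gene-assigned reads numbered 17063826 to 40881682 per library. Reads that the counting assigned to no feature made up 20.6% to 32% of each library, and the highest shares were in the first Sc and first Pc library of Z1flag. Sc and Pc libraries lay at opposite ends of the first principal component (71.7% of the variance), while the second (13.1%) set the first Pc library of Z1flag apart from the first Pc library of Z2flag. Of the enterocyte markers, 7 of 9 rose and 0 fell, and their summed level was 1671 to 2454 CPM (gene counts scaled to library size, with TMM factors) in Sc and 2076 to 3199 CPM in Pc. All 5 tested markers of hepatocytes also rose, from a sum of 190 to 607 CPM to a sum of 3207 to 5815 CPM, and 4 of 6 proliferation markers fell, with the lowest sum (1191 CPM) in the first Pc library of Z1flag. Colonocyte markers rose in 3 of 4 tested (summed 1.98 to 4.25 CPM in Sc and 16.1 to 95.2 CPM in Pc), with a median log2 fold change of 5.27. Goblet markers rose in 2 of 3 tested (summed 7.3 to 31.2 CPM in Sc and 59.4 to 148 CPM in Pc), and leukocyte and endothelial markers in 3 of 4 (5.54 to 12.4 CPM and 10.5 to 26.9 CPM). Of the 8 colonocyte markers, CA1, CA4, CEACAM7 and AQP8 stayed below 1 CPM in every library. So did MUC2, SPINK4, CLCA1 and FCGBP of 6 goblet markers, and PTPRC, CD3E, CD68 and CDH5 of 7 leukocyte and endothelial markers. CEACAM5, a colonocyte marker, had 46.1 CPM in the first Pc library of Z2flag and 2.65 to 4.39 CPM in the other Pc libraries. Fibroblast markers counted 1 higher and 2 lower of 4 (90.3 to 150 CPM and 55.2 to 68.7 CPM). Enteroendocrine markers counted 1 higher of 2 tested, SCGN, which rose by 2.20 on the log2 scale (adjusted p = 0.000168), and their sum was 1.31 to 3.78 CPM in Sc and 8.43 to 13.1 CPM in Pc. Paneth and tuft markers counted 0 higher and 1 lower of 3 (4.1 to 12.2 CPM and 8.21 to 22.1 CPM). Of the enteroendocrine list CHGA, NEUROD1 and GCG had 0 counts in every library, as did DCLK1 of the tuft and COL1A2 of the fibroblast markers. The hepatocyte, proliferation, colonocyte, goblet, fibroblast and enteroendocrine sums did not overlap between the states in which the carriers were compared. The enterocyte, leukocyte and endothelial, and Paneth and tuft sums overlapped. The part of these markers in the carrier results was not tested. In bulk RNA, fewer cells of a type and less RNA per cell cannot be told apart.

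Confluence moved the carriers in both directions. Of the 48 members, 39 had enough reads to be tested, 10 rose and 14 fell for the mean change over both lines, and 15 did not pass. That is 61.5% of those tested, where 55.4% of all 18240 genes tested passed (27.8% higher and 27.5% lower), so the share among carriers was near that of all genes. Their median log2 fold change was -0.02, against -0.01 for all genes. Set against the Sc mean, the median member stood at -0.25 in the first Pc library of Z1flag and at -0.04 to 0.02 in the other 3 Pc libraries. Expression was tested with edgeR's quasi-likelihood F test, and a gene passed at a Benjamini-Hochberg adjusted p under 0.05 over all genes tested. Without overlap between the 4 Sc and the 4 Pc libraries, 9 members lay higher and 15 lower after confluence, where 51.2% of all genes had no overlap (25.1% higher and 26.1% lower). Changes of at least 2-fold were found in 5 members that rose (SLC25A6, SLC25A42, SLC25A29, SLC25A25 and SLC25A36) and 8 that fell (SLC25A10, SLC25A32, SLC25A13, SLC25A22, SLC25A4, SLC25A21, SLC25A46 and SLC25A11). Upper-quartile scaling moved the median of all genes to 0.18 and the higher share of passing genes from 50.3% to 62%, and it called 15 members higher and 14 lower. The number that rose was 6 without the first Sc library of Z1flag or without the second Sc library of Z2flag, and the 4 members lost both times were SLC25A16, SLC25A20, SLC25A40 and SLC25A53.

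**Figure D1:**
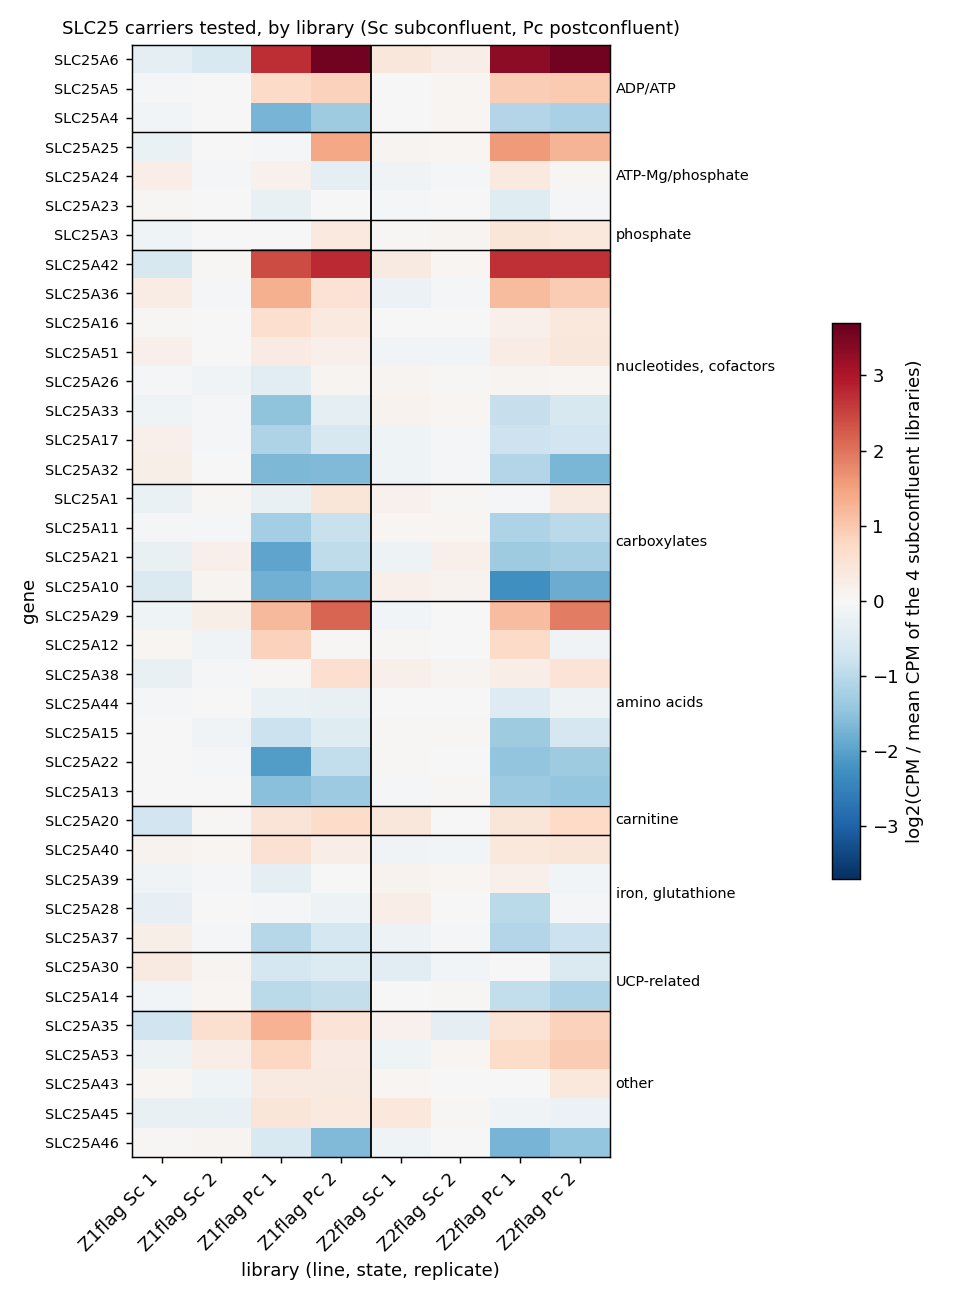
Expression of 38 of the 39 tested SLC25 members in each of the 8 libraries (columns), as log2 of CPM over the mean CPM of the 4 subconfluent libraries, with members grouped by what they carry. SLC25A6 and SLC25A42 are the deepest red in all 4 postconfluent libraries, the deepest blue is SLC25A10 in the first postconfluent library of Z2flag, and within several groups red and blue genes stand next to each other.

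The other 9 members did not reach the minimum number of reads. They were SLC25A2, SLC25A18, SLC25A27, SLC25A31, SLC25A34, SLC25A41, SLC25A47, SLC25A48 and SLC25A52, with 3 to 50 counts in total over all 8 libraries and at most 0.496 CPM in any of them. SLC25A2, an ornithine carrier, had 41 counts in Sc and 9 in Pc, and SLC25A27, related to the uncoupling proteins, had 3 in Sc and 23 in Pc. SLC25A31, the ADP/ATP carrier known from testis, had 3 counts in Sc and 0 in Pc. None of the 9 was in the main test of states or lines. With no low-count filter, SLC25A2 (lower) and SLC25A27 (higher) passed for the mean change, at counts that leave this uncertain.

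The promoters of 4 members are printed because these genes carry the clearest contrasts: SLC25A4 and SLC25A5 are ADP/ATP carriers that moved in opposite directions, SLC25A13 fell with little spread between libraries, and SLC25A42 rose 6.32-fold. Each is the 250 bases before the gene's start in the RefSeq promoter table (GRCh38.p14), read 5′ to 3′ on the gene's strand, and capitals mark the matches to an E-box (CACGTG), a GC box (GGGCGG, or CCGCCC on the other strand) or a CCAAT box (CCAAT, or ATTGG on the other strand).
SLC25A4, chr4:185143016-185143265, plus strand: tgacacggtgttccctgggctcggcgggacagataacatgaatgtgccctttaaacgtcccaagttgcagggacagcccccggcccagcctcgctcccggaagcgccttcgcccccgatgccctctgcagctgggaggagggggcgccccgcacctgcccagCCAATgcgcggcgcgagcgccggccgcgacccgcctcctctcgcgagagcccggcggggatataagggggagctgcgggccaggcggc
SLC25A5, chrX:119468194-119468443, plus strand: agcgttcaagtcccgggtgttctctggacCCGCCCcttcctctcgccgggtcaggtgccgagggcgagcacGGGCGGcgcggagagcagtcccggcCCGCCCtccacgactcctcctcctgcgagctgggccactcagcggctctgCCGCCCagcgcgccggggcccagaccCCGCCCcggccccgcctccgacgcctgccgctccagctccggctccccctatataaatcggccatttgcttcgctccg
SLC25A13, chr7:96322099-96322348, minus strand: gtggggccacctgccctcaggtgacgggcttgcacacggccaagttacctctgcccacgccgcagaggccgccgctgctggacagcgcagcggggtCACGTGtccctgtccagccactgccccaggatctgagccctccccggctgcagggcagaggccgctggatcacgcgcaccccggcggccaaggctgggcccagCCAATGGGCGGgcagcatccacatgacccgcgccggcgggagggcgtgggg
SLC25A42, chr19:19063744-19063993, plus strand: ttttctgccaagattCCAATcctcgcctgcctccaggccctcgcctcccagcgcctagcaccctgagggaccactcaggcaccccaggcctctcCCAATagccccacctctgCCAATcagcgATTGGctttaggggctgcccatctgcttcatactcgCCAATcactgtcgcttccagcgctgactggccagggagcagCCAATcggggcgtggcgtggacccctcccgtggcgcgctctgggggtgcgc
The SLC25A42 window held 6 CCAAT boxes, from position -235 to position -51 relative to the start, and the SLC25A5 window held 5 GC boxes and 0 CCAAT boxes. SLC25A4 had 1 CCAAT box at -88. SLC25A13 had 1 E-box at -154, and its CCAAT box at -51 ran directly into a GC box at -46.

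Over the 300 bases from 250 before to 50 after the start, 40 of the 48 members had a RefSeq promoter, among 27195 promoters in the table. For 7 members it held more than 1 entry. Whether the 27195 are all of protein-coding genes, as the members are, is not stated here. A GC box on either strand was present in 28 of the 40 (70%), against 44.7% of all promoters. A CCAAT box was present in 19 (47.5%, against 35.7%), and an E-box in 7 (17.5%, against 7.45%). The half-site GCGCA followed directly by its reverse complement, a site of NRF1, and TCAAGGTCA or TGACCTTGA, a site of the estrogen-related receptors, occurred in 0 of the 40, against 1.36% and 0.36% of all promoters. Among members with a promoter, an E-box was present in 1 of 9 that rose and 3 of 11 that fell, a GC box in 7 of 9 and 7 of 11, and a CCAAT box in 6 of 9 and 6 of 11. These are matches of letters, and binding was not measured in the counts.

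The ADP/ATP carriers exchange matrix ATP for cytosolic ADP across the inner membrane. All 3 that were tested passed, SLC25A5 and SLC25A6 higher and SLC25A4 lower after confluence. Of all genes tested, 55.4% passed. SLC25A5 (ENSG00000005022, chrX:119468400-119471319), the isoform known from dividing cells, had 314 and 322 CPM in Sc Z1flag and 323 and 340 CPM in Sc Z2flag libraries. After confluence it had 534 and 583 CPM in Z1flag and 610 and 637 CPM in Z2flag. All 4 Pc libraries lay above all 4 Sc libraries, and SLC25A5 rose by 0.86 on the log2 scale (SE 0.13, adjusted p = 0.000312). SLC25A4 (ENSG00000151729, chr4:185143241-185150382), the isoform known from heart and skeletal muscle, had 41.9, 46.1, 46.1 and 47.3 CPM in the Sc libraries. Its Pc values were 13.7 and 18.3 CPM in Z1flag and 21.3 and 19.7 CPM in Z2flag. The groups did not overlap in either line, and SLC25A4 fell by 1.32 on the log2 scale (SE 0.15, adjusted p = 6.09e-05). Per kilobase of exon, SLC25A5 therefore stood 22.6 to 24.2 times above SLC25A4 in Sc and 92.3 to 126 times above it in Pc.

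SLC25A6, the ADP/ATP carrier known as widely expressed, had 0.649 to 1.28 CPM in the Sc libraries and 6.43, 11.4, 9.54 and 11.5 CPM in the Pc libraries. The Pc libraries were all higher, by 3.38 on the log2 scale (SE 0.26, adjusted p = 1.19e-05). This level is uncertain, and so is the fold change, which rests on 129 counts in the Sc and 758 in the Pc libraries. The gene lies in the pseudoautosomal region and is annotated on both X and Y (chrX:1386152-1392724), so that reads can match at both places. Of the 18 protein-coding genes annotated on both, 11 had 0 counts in all libraries, and no gene but SLC25A6 exceeded 1.32 CPM in any library or passed the test. Without SLC25A6, 9 members rose and 60.5% of those tested passed. SLC25A5 has 9 pseudogenes in the count tables, and together they held at most 1.76 CPM in any library.

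**Figure D2:**
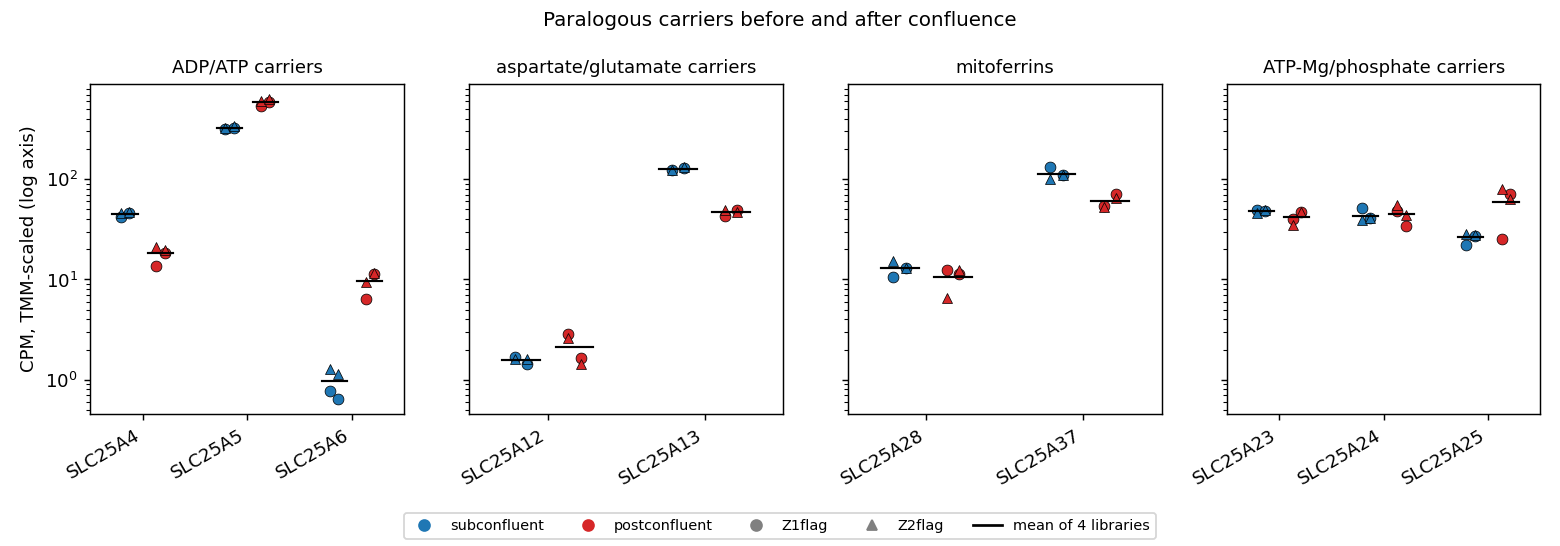
TMM-scaled CPM (log axis) of related carriers in the 8 libraries, with subconfluent in blue and postconfluent in red, circles for Z1flag, triangles for Z2flag, and bars for the mean of 4 libraries. SLC25A5 and SLC25A6 move up while SLC25A4 moves down, SLC25A13 and SLC25A37 move down while the bars of their relatives SLC25A12 and SLC25A28 stay close, and 1 postconfluent point of SLC25A25 lies among the subconfluent ones.

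The ATP-Mg/phosphate carriers bind calcium on their cytosolic side and adjust the adenine nucleotide content of the matrix. Of 3 tested, SLC25A25 rose and SLC25A23 and SLC25A24 did not pass (33.3% passing, against 55.4% of all genes). SLC25A25 had 22.3 and 26.9 CPM in Sc Z1flag, 28.5 and 27.8 CPM in Sc Z2flag, 25.4 and 71.1 CPM in Pc Z1flag and 79.1 and 63.2 CPM in Pc Z2flag. The first Pc library of Z1flag lay within the Sc range and the other 3 Pc libraries were well above it. The mean change was 1.15 on the log2 scale (SE 0.27, adjusted p = 0.00477), and it was 0.73 (adjusted p = 0.000933) without the second Pc library of Z1flag. In Z2flag the gene rose by 1.34 (adjusted p = 0.0207). In Z1flag the change of 0.97 missed the threshold (adjusted p = 0.067), and it passed under 6 of 18 alternatives, DESeq2 among them (adjusted p = 0.0302). It rested on its Pc libraries, with 0.04 (adjusted p = 0.9) without the second and 1.57 (adjusted p = 0.000442) without the first. The difference between the lines was 0.37 (SE 0.53, adjusted p = 0.889). An antisense gene, SLC25A25-AS1, covers 13.5% of its exon bases at a mean of 27.84 CPM, and the sources used here do not give the strand setting of the counting. SLC25A24 (log2 fold change 0.06, adjusted p = 0.748) had Pc libraries on both sides of the Sc range and within it, and SLC25A23 (-0.18, adjusted p = 0.291) had them below or within it.

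SLC25A3, which brings phosphate (and copper) into the matrix, was the most abundant member by read count. Its values were 759, 836, 872 and 892 CPM in Sc, 831 and 1086 CPM in Pc Z1flag and 1137 and 1104 CPM in Pc Z2flag. Only the first Pc library of Z1flag lay within the Sc range. The change of 0.31 on the log2 scale (SE 0.14) did not pass (adjusted p = 0.0884), but did without that library, at 0.46. It also passed under upper-quartile scaling, with CPM of at least 5 and without both first Z1flag libraries.

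Carriers of nucleotides and cofactors moved both ways, with 77.8% passing, where 55.4% of all genes did. Of 9 tested, 3 rose (SLC25A42, SLC25A36 and SLC25A16), 4 fell (among them SLC25A32, SLC25A17 and SLC25A33) and 2 did not pass, the carriers SLC25A26 for S-adenosylmethionine and SLC25A51 for NAD. SLC25A51 passed without the second Pc library of Z1flag (0.37), under upper-quartile scaling and with CPM of at least 5. LRIG1, on the opposite strand, covers 15.5% of the exon bases of SLC25A26 at a mean of 103.53 CPM. SLC25A42 (ENSG00000181035, chr19:19063999-19112888), which imports coenzyme A, had 2.48 and 3.85 CPM in Sc Z1flag and 4.66 and 3.88 CPM in Sc Z2flag. After confluence it had 19.9 and 25.2 CPM in Z1flag and 24.3 and 24 CPM in Z2flag. Every Pc library was above every Sc library, and the gene rose by 2.66 on the log2 scale (SE 0.20, adjusted p = 1.07e-05) and in both lines. It had the smallest adjusted p of the members in both lines.

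SLC25A36, a carrier of pyrimidine nucleotides, had 203 to 287 CPM in Sc, 596 and 348 CPM in Pc Z1flag and 540 and 452 CPM in Pc Z2flag. It rose by 1.03 on the log2 scale (SE 0.19, adjusted p = 0.0012), with the 2 Pc libraries of Z1flag further apart than those of Z2flag. SLC25A33, a second carrier of pyrimidine nucleotides, fell by 0.75 (adjusted p = 0.0159), and this call was lost without the first Pc library of Z2flag (-0.64, adjusted p = 0.0856). The folate and flavin carrier SLC25A32 had 54.5, 45.9, 41.8 and 44 CPM in Sc and 14.7, 14.9, 22.1 and 14.3 CPM in Pc, where the high value was the first library of Z2flag. The groups did not overlap, and it was 2.82-fold lower in Pc (SE 0.17 on the log2 scale, adjusted p = 6.44e-05). DCAF13, on the opposite strand, covers 11.1% of its exon bases at a mean of 64.95 CPM. SLC25A17, a carrier of peroxisomes and not of mitochondria, fell by 0.78 (adjusted p = 0.00197). SLC25A16, which is linked to coenzyme A, rose by 0.40 (adjusted p = 0.0238), and this call was lost when any 1 of the 4 Sc libraries was left out (adjusted p = 0.0807, 0.0912, 0.107 and 0.115).

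Among carriers of di-, tri- and ketocarboxylates, 3 of 4 fell and 0 rose. That is 75% passing, where 55.4% of all genes passed and 27.5% fell. Their median log2 fold change was -1.18, against -0.01 for all genes. SLC25A10, the dicarboxylate carrier that exchanges malate and succinate for phosphate, had 8.29 and 12.8 CPM in Sc Z1flag and 13.5 and 13 CPM in Sc Z2flag. In Pc it had 3.44 and 4.08 CPM in Z1flag and 2.48 and 3.31 CPM in Z2flag. No Pc library reached the lowest Sc library, and SLC25A10 fell by 1.84 (SE 0.22, adjusted p = 9.05e-05), the furthest of all tested members. A protein-coding gene on the same strand, ENSG00000262660, covers 46.6% of its exon bases and had a mean of 0 CPM, and how reads in the shared bases were assigned is not stated. SLC25A11 (malate against alpha-ketoglutarate, a step of the malate-aspartate shuttle) had 29.4, 29.7, 32.6 and 32.6 CPM in Sc and 13.1, 17.6, 14.1 and 15.6 CPM in Pc. It fell by 1.04 (SE 0.15, adjusted p = 0.00029) with no overlap. RNF167, on the opposite strand, covers 9.1% of the exon bases of SLC25A11 at a mean of 18.93 CPM. SLC25A21, the oxodicarboxylate carrier of lysine breakdown, was low throughout, at 4.87 to 6.78 CPM in Sc and 1.51 to 3.06 CPM in Pc, and fell by 1.32 (SE 0.27, adjusted p = 0.00228). Antisense gene SLC25A21-AS1 covers 15.8% and PAX9 13% of its exon bases, each at a mean CPM like its own (3.42 and 5.02 against 4.14).

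The fourth of these carriers, SLC25A1, exports citrate for fatty acid and sterol synthesis. It had 89.2, 108, 117 and 109 CPM in Sc and 86.8, 143, 102 and 132 CPM in Pc. The second Pc library of each line was above the Sc range and the first was below or within it, and the change of 0.13 (SE 0.18, adjusted p = 0.544) did not pass. Without the first Pc library of Z1flag it was 0.36 (adjusted p = 0.0371), and without the second -0.03 (adjusted p = 0.873).

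Amino acid carriers showed 1 rise and 3 falls among 7 tested (57.1% passing, near the 55.4% of all genes). SLC25A13 (citrin; ENSG00000004864, chr7:96120220-96322147) exports aspartate in exchange for glutamate and serves the malate-aspartate shuttle. Its values were 125, 128, 124 and 131 CPM in Sc and 43.4, 49.8, 49.9 and 47 CPM in Pc. Libraries within a state differed little, and SLC25A13 fell by 1.42 (SE 0.13, adjusted p = 2.05e-05), by 1.44 in Z1flag and by 1.40 in Z2flag. Its paralogue SLC25A12 (aralar) stayed at 1.44 to 2.84 CPM in all libraries and did not pass (0.43, adjusted p = 0.235). Per kilobase of exon, SLC25A13 was 104 to 123 times SLC25A12 in Sc and 21.3 to 45.3 times in Pc.

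SLC25A22, which carries glutamate with a proton, had 17 to 18.5 CPM in Sc, 4.27 and 9.54 CPM in Pc Z1flag and 6.56 and 7.28 CPM in Pc Z2flag. It fell by 1.39 (SE 0.24, adjusted p = 0.000808). The ornithine carrier of the urea cycle, SLC25A15, fell by 0.78 (adjusted p = 0.00379), with all Pc libraries (15.2 to 27.5 CPM) below all Sc libraries (34.7 to 39 CPM). SLC25A29, which carries basic amino acids such as arginine and lysine, went the other way. Its Sc values were 1.53 to 1.98 CPM, and its Pc values were 3.86 and 7.5 CPM in Z1flag and 3.75 and 6.32 CPM in Z2flag. It rose by 1.65 (SE 0.29, adjusted p = 0.000996), with the second Pc library above the first in both lines. SLC25A38, linked to glycine import for haem synthesis, and SLC25A44, for branched-chain amino acids, did not pass, although the 4 Pc libraries of SLC25A44 lay below all Sc libraries. SLC25A38 passed without the first Pc library of Z1flag (0.57) and without both first Z1flag libraries. It also passed under upper-quartile scaling and with CPM of at least 5.

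SLC25A20 exchanges acylcarnitine for free carnitine and so admits long-chain fatty acids to oxidation. It had 13.7 and 23 CPM in Sc Z1flag, 30 and 22.7 CPM in Sc Z2flag, 30.9 and 36.1 CPM in Pc Z1flag and 30.5 and 37 CPM in Pc Z2flag. The states did not overlap, although the lowest Pc and the highest Sc library were close. It rose by 0.61 (SE 0.19, adjusted p = 0.0207). The adjusted p was 0.1 without the first Sc library of Z1flag, 0.103 without the second Sc library of Z2flag and 0.0505 without the second Pc library of Z2flag. The call was made in Z1flag (0.87, adjusted p = 0.029) and not in Z2flag (0.36, adjusted p = 0.32). The Z1flag call was lost without the first Sc library of Z1flag (0.52, adjusted p = 0.244), without its second Pc library (0.75, adjusted p = 0.0596) and under 3 other alternatives of 18. The lines differed by -0.51 (SE 0.38, adjusted p = 0.799). CPT1A, the outer-membrane enzyme that makes the acylcarnitine, rose by 2.45 (SE 0.19, adjusted p = 1.07e-05), from 5.59 to 9.93 CPM in Sc to 35 to 45.1 CPM in Pc. Of 2 other carnitine enzymes, picked after their values were seen, CPT2 did not pass (-0.40, SE 0.21, adjusted p = 0.138). It had 17.2 to 22 CPM in Sc and 8.38 to 22.5 CPM in Pc. CRAT rose by 1.65 (SE 0.19, adjusted p = 7.52e-05).

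Of the iron and glutathione carriers, SLC25A37 fell, SLC25A40 rose and SLC25A28 and SLC25A39 did not pass (50% passing, against 55.4% of all genes). SLC25A37, the mitoferrin known from erythroid cells, had 132, 110, 99.5 and 109 CPM in Sc and 54, 72, 53.1 and 65.5 CPM in Pc. It fell by 0.88 (SE 0.15, adjusted p = 0.000804) with no overlap. SLC25A28, the mitoferrin known from other tissues, had 10.5 to 15.3 CPM in Sc and 6.56 to 12.5 CPM in Pc (-0.28, SE 0.22, adjusted p = 0.291). SLC25A39, which takes part in glutathione import, had 90.1 to 108 CPM in Sc and 78.6 to 113 CPM in Pc, with the Pc range enclosing the Sc range (-0.04, SE 0.14, adjusted p = 0.816). Its relative SLC25A40 had 21.4, 20.8, 17.9 and 18.3 CPM in Sc and 29, 23.1, 25.8 and 26.5 CPM in Pc, and rose by 0.41 (SE 0.14, adjusted p = 0.03). That call was lost when any 1 of the 4 Sc libraries was left out (adjusted p = 0.0967, 0.101, 0.138 and 0.123).

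Both tested carriers related to the uncoupling proteins, whose transported solutes are not stated here, fell in at least 1 line. For the mean change over both lines, 1 of the 2 passed (50%, against 55.4% of all genes). SLC25A14 had 5.23 to 5.95 CPM in Sc and 2.53 to 3.06 CPM in Pc, and fell by 0.98 (SE 0.20, adjusted p = 0.00227) in groups that did not overlap. SLC25A30 had 28.6 and 24.4 CPM in Sc Z1flag and 14.5 and 16 CPM in Pc Z1flag, but 17.5 and 21.2 CPM in Sc Z2flag and 23 and 15.8 CPM in Pc Z2flag. The states were apart in Z1flag, where it fell by 0.80 (SE 0.24, adjusted p = 0.0251), and overlapped in Z2flag (0.01, SE 0.24, adjusted p = 0.987). The difference between the lines was 0.80 (SE 0.34) and did not pass (adjusted p = 0.799). The Z1flag call was lost without the first Sc (adjusted p = 0.145), second Sc (0.0648) or first Pc (0.0732) library of Z1flag. Its mean change of -0.40 missed the threshold (adjusted p = 0.072) and passed without the first Pc library of Z2flag (-0.50, adjusted p = 0.0417).

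SLC25A46 differs from most of its relatives in sitting in the outer membrane, where it takes part in fusion and fission. It had 90.6 and 93.4 CPM in Sc Z1flag and 78.8 and 88 CPM in Sc Z2flag. Its Pc values were 59.5 and 28.2 CPM in Z1flag and 26.6 and 32.5 CPM in Z2flag. The first Pc library of Z1flag was the highest of the 4 and still below every Sc library, and the gene fell by 1.28 (SE 0.21, adjusted p = 0.000686). SLC25A53 was low throughout (1.58 to 2.14 CPM in Sc and 2.25 to 3.49 CPM in Pc) and rose by 0.70 (SE 0.25, adjusted p = 0.0341). The adjusted p was 0.134 and 0.0512 without the first and second Sc library of Z1flag, 0.149 and 0.098 without those of Z2flag, and 0.0672 without the second Pc library of Z2flag. SLC25A43 (0.27, adjusted p = 0.139) and SLC25A35 (0.82, adjusted p = 0.0736) did not pass. Both passed under upper-quartile scaling, and SLC25A43 also with CPM of at least 5. SLC25A35 shares 33.2% of its exon bases with RANGRF on the opposite strand. Its adjusted p was 0.0255 without the second Pc library of Z1flag and 0.0295 without its second Sc library.

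Levels were compared between genes as CPM per kilobase of the principal transcript. SLC25A3 was highest (500 in Sc and 619 in Pc), followed by SLC25A5 (255 and 464). SLC25A36 (51.3 and 104), SLC25A1 (64.2 and 70.3) and SLC25A39 (61.2 and 59.5) came next, and SLC25A13 (40.5 and 15.2) was sixth over all libraries. The order of the leading pair depends on the length used, since per kilobase of all annotated exons SLC25A5 was at 305 and SLC25A3 at 106 over all libraries. Summed over the 48 members, the family held 2591 to 2719 CPM in Sc and 2868 to 3275 CPM in Pc. SLC25A3, SLC25A5 and SLC25A36 together made up 52.5% to 53.9% of this sum in Sc and 65% to 69.8% in Pc, so these 3 genes held a larger share of the family's reads in each Pc library than in any Sc library. SLC25A5 alone went from 12.1% to 12.5% of the sum to 18.6% to 19.6%.

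**Figure D3:**
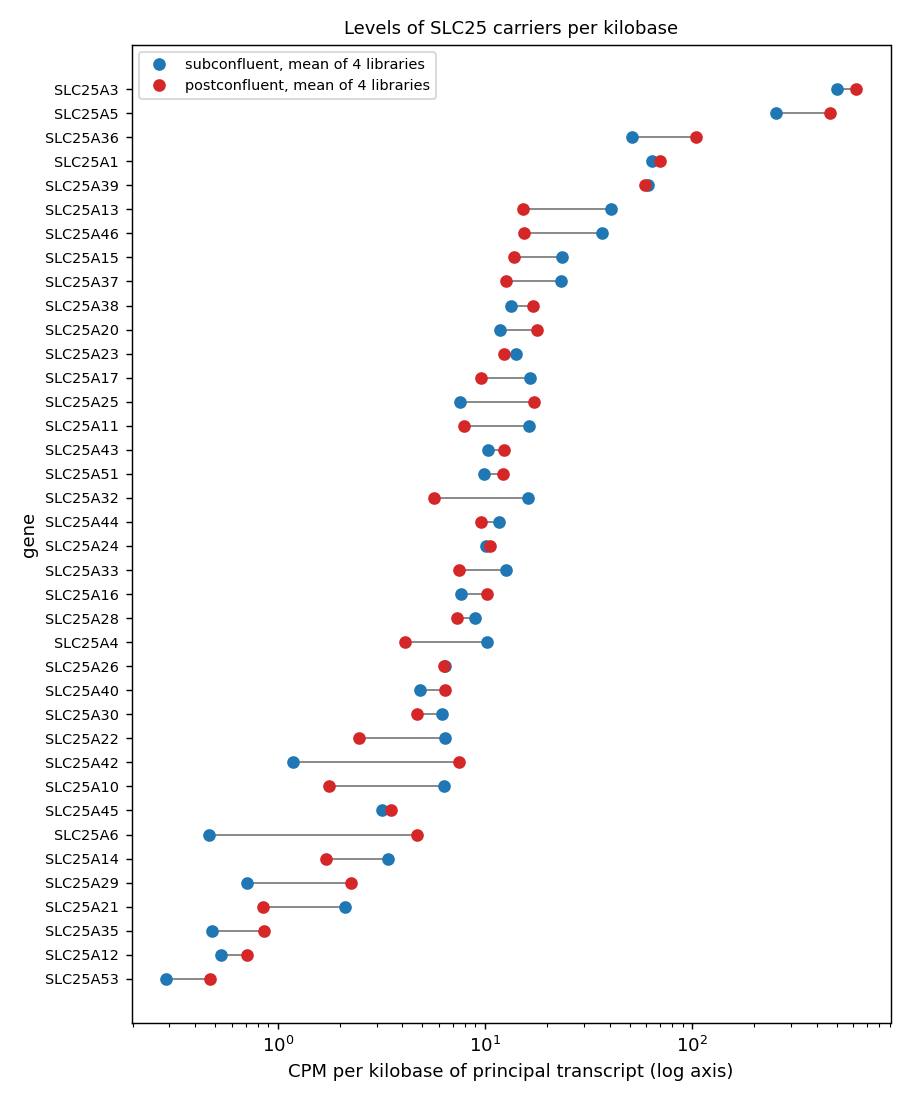
Mean level of 38 of the 39 tested members as CPM per kilobase of its principal transcript (log axis), in subconfluent (blue) and postconfluent (red) cells, each the mean of 4 libraries. SLC25A3 and SLC25A5 stand at the top, and the longest lines join the values of SLC25A6 and SLC25A42 near the bottom.

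Within single lines, 6 members rose and 12 fell in Z1flag (46.2% of those tested, against 40.5% of all genes), and 6 rose and 13 fell in Z2flag (48.7%, against 37.6%). Of the 39 tested, those passing in both lines in the same direction were 5 that rose (SLC25A5, SLC25A6, SLC25A29, SLC25A36 and SLC25A42) and 11 that fell (SLC25A4, SLC25A10, SLC25A11, SLC25A13, SLC25A14, SLC25A17, SLC25A21, SLC25A22, SLC25A32, SLC25A37 and SLC25A46). Of all genes, 28.4% did so (14.4% higher and 14% lower). The Z2flag call of SLC25A17 was close to the threshold (-0.64, adjusted p = 0.0449) and was made under 6 of 18 alternatives. It was lost under RLE scaling (adjusted p = 0.0715), upper-quartile scaling (0.103), CPM of at least 5 (0.0583) and DESeq2 (0.0789), under the replicate block (0.0544) and glmTreat at 1.5-fold (0.399), and without any 1 of the 4 Z2flag libraries or 1 of the 2 Sc libraries of Z1flag (0.0694 to 0.225). Other calls made in both lines were also lost under some of the 17 alternatives other than glmTreat. In Z1flag these were 8 for SLC25A14, 5 for SLC25A36, and 4 each for SLC25A21 and SLC25A46. In Z2flag there were 4 each for SLC25A14, SLC25A21 and SLC25A37. Passing in Z1flag and not in Z2flag were SLC25A20 (higher) and SLC25A30 (lower). In Z2flag and not in Z1flag were SLC25A25 (higher) and 2 that were lower, among them SLC25A15. SLC25A16, SLC25A40, SLC25A53 and SLC25A33 passed for the mean change and in neither line. Without overlap between the 2 Sc and 2 Pc libraries of Z1flag were 12 tested members higher and 17 lower (of all genes 68.7%, with 35.1% higher and 33.5% lower), and of Z2flag 15 higher and 17 lower (77.5%, with 36.3% higher and 41.2% lower). With 2 libraries a group these counts lean on single libraries. The Z1flag total of 18 was 8 without its first Sc library, and the Z2flag total of 19 was 9 and 11 without its first and second Sc library and 10 without its first Pc library.

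**Figure D4:**
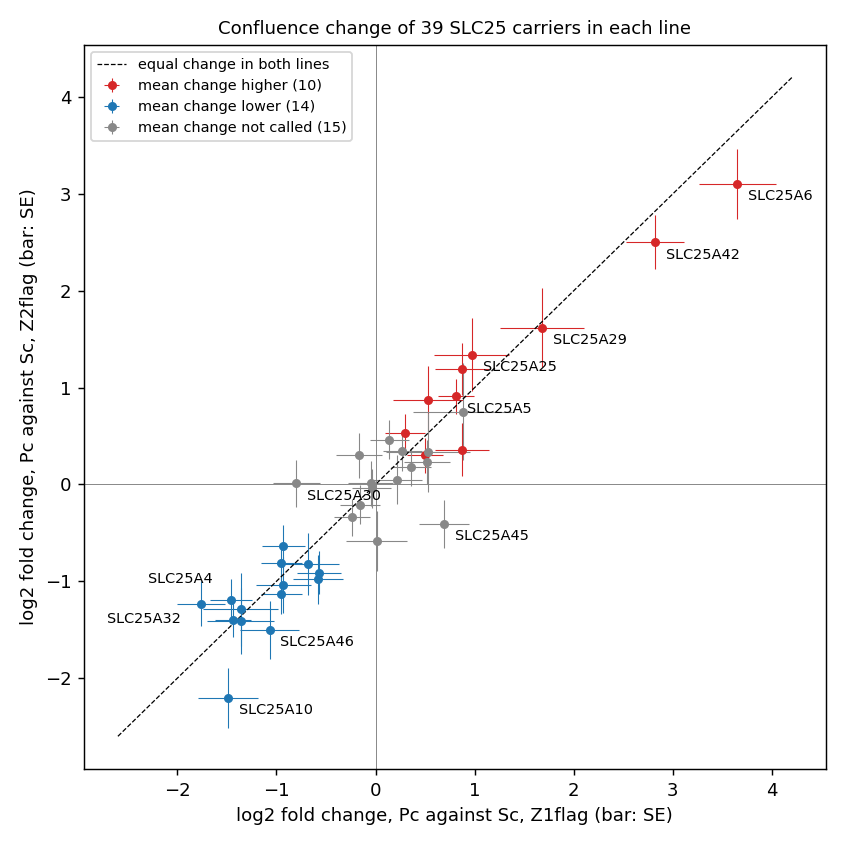
Log2 fold change of each tested member after confluence in Z1flag (x axis) and Z2flag (y axis), with bars of 1 SE and colours for the test of the mean change (10 higher, 14 lower, 15 not called). Points lie along the dashed line of equal change, and SLC25A45 and SLC25A30 lie furthest from it among the labelled points near the centre.

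No difference between the lines passed for any carrier. The fold changes had the same sign in 34 of 39 members (83.4% of all genes did), and Pearson's r across the 39 genes was 0.95, against 0.85 across all genes. Genes are not independent replicates, and the lines share no library. The lines differed by a median of 0.23 on the log2 scale, with a median SE of that difference of 0.34. For the difference of the confluence change between lines, edgeR, DESeq2 and limma voom each called 0 members and 0 genes. At an unadjusted edgeR p under 0.05 there were 2 members (SLC25A45 and SLC25A30) and 902 genes, which is 4.95% of those tested.

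SLC25A45, a member grouped here with those of unstated substrate, had the widest gap between the lines. It had 5.99 and 5.99 CPM in Sc Z1flag and 9.95 and 9.44 CPM in Pc Z1flag, but 9.6 and 7.54 CPM in Sc Z2flag and 6.62 and 6.26 CPM in Pc Z2flag. The states were apart in each line, with Pc above Sc in Z1flag and below it in Z2flag. The change was 0.69 in Z1flag (SE 0.25, adjusted p = 0.0508) and -0.41 in Z2flag (SE 0.25, adjusted p = 0.221). The Z1flag change passed under 5 of 18 alternatives, which were limma voom (adjusted p = 0.0474), upper-quartile scaling (0.018), CPM of at least 5 (0.0236), and leaving out the second Pc library of Z1flag (0.0494) or of Z2flag (0.0499). The difference of -1.11 (SE 0.36) had an unadjusted edgeR p of 0.0112 and an adjusted p of 0.799. The third smallest interaction p was that of SLC25A10, which fell by 1.49 in Z1flag and by 2.20 in Z2flag (difference -0.70, SE 0.43, adjusted p = 0.799).

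Direct comparison of the lines gave 0 members and 0 genes in either state by edgeR, DESeq2 and limma voom. At an unadjusted edgeR p under 0.05 there were 0 members and 195 genes (1.07%) in Sc, and 1 member, SLC25A45, and 1308 genes (7.17%) in Pc. Without the second Pc library of Z1flag, SLC25A25 passed for the difference between changes, among 190 genes, and SLC25A25, SLC25A33 and SLC25A46 passed between the postconfluent lines, among 2252 genes. The Pc group of Z1flag was then the first library alone, assumed to vary as the other groups do.

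Genes that work with the carriers were read from lists by function. Of 10 genes for import and membrane insertion of carriers, 7 fell and 1 rose, with a median of -1.07 against -0.01 for all genes. That is 80% passing, where 55.4% of all genes passed. TIMM10, an intermembrane-space chaperone that escorts carriers, fell by 2.11 (SE 0.18, adjusted p = 1.93e-05), from 31.4 to 39.8 CPM to 5.6 to 9.62 CPM, and TIMM8B by 1.57 (SE 0.16, adjusted p = 3.81e-05). TIMM22, the pore that inserts carriers, fell by 1.11 (adjusted p = 0.000174), while TIMM10B rose by 0.84 (adjusted p = 0.000537); both were picked after their values were seen.

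Of 4 tested family proteins with other symbols, 1 passed (25%, against 55.4% of all genes). It was MTCH2, an outer-membrane insertase, which fell by 1.14 (SE 0.14, adjusted p = 9.12e-05). Its relative MTCH1 had 168 to 191 CPM in Sc and 187 to 256 CPM in Pc and did not pass (0.32, adjusted p = 0.0666). Mitochondrial transport genes of other families counted 3 higher and 5 lower of 14 (57.1%, against 55.4% of all genes), with a median of 0.06. Among them SFXN2 fell by 2.23 (SE 0.26, adjusted p = 7.9e-05) and LETM1, a cation exchanger, by 1.14 (SE 0.13, adjusted p = 8.47e-05). Partner enzymes counted 5 higher and 7 lower of 21 (57.1%, against 55.4% of all genes), with a median of -0.03. CPT1A had the smallest adjusted p of the list.

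Regulators of mitochondrial biogenesis counted 0 higher and 3 lower of 6 tested. Among them were TFAM, which packages mitochondrial DNA and takes part in its transcription (-1.09, SE 0.15, adjusted p = 0.000176), and PPARGC1B (-0.74, SE 0.14, adjusted p = 0.00123). General mitochondrial proteins counted 1 higher and 5 lower of 10. PHB1, a scaffold of the inner membrane, fell by 1.69 (SE 0.19, adjusted p = 6.07e-05), and TOMM20, an import receptor, rose by 1.40 (SE 0.13, adjusted p = 2.78e-05). The list medians were -0.46 and -0.55, against -0.01 for all genes. Of the tested genes 50% and 60% passed, where 55.4% of all genes did, so both shares were near that of all genes. Mitochondrially encoded genes had 0 counts in every library and could not be set beside the carriers.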

How the data were processed

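RNA-seq counts of 8 libraries were analysed as deposited. Per the labels' protocols they are stranded, rRNA-depleted and paired-end, from an Illumina NextSeq instrument. The authors' values are raw read counts per gene. Per the submitters' processing notes, STAR 2.5.2b, SAMtools, HTSeq and hg38 were used. The counting's annotation and strand setting: not given in the sources used here. HTSeq classes that name no gene stayed out of library sizes (no feature 20.6% to 32%, ambiguous 5.39% to 7.86%, not unique 6.59% to 10.3%). Of 58302 identifiers, 57532 had a symbol and 58039 were in GENCODE v29, which gave positions and lengths.

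Groups came from the labels. Counts were fitted with edgeR 4.0.16 in R 4.3.3 (TMM scaling, robust quasi-likelihood F test) as 4 group means over all 8 libraries, with 4 residual degrees of freedom. The filterByExpr filter (minimum count 10, minimum total 15) kept 18240 genes, and p-values were Benjamini-Hochberg adjusted over them. Levels are TMM-scaled CPM. The script was tested on simulated data. Named were, per role group, up to 3 members with the smallest adjusted p, the first passing member of the other direction and the highest per kilobase, the 3 smallest interaction p, and up to 2 genes of each other list. Other members are named to complete counts, after their values were seen. Members and lists were chosen with earlier results of these data known.

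Each result was recomputed with DESeq2 1.42.0, limma voom (limma 3.58.1), upper-quartile or RLE scaling, other filters, glmTreat at 1.5-fold, a replicate block, only the libraries compared, each library left out, and both first Z1flag libraries left out. Promoters came from the RefSeq table. Protein sequences were not used here. Some genes are counted in the totals and not reported here by name.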

Additional observations from a re-analysis of the deposited data

Results flagged for a closer look

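In each state, the 4 libraries of each of the 29 members described by the naming rule were checked for 1 library far from the other 3, by Dixon's ratio of that gap to the whole range (at its 95% critical value). Chance marks about 1 in 20 groups, and 6 of 58 were marked here. The 4 libraries of a state come from both lines, so a difference between lines also widens the range.

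In Pc, the first Z1flag library had the lowest SLC25A3, the phosphate carrier, at 831 CPM against 1086 to 1137 CPM in the other 3. The first Z2flag library had the highest SLC25A32, the folate carrier, at 22.1 CPM against 14.3 to 14.9 CPM. That library also had the lowest SLC25A28, a mitoferrin, at 6.56 CPM against 11.3 to 12.5 CPM, and the lowest SLC25A43 at 28.8 CPM against 35.9 to 37.6 CPM. In Sc, the first Z1flag library had the lowest SLC25A10, the dicarboxylate carrier, at 8.29 CPM against 12.8 to 13.5 CPM. The second Z1flag library had the lowest SLC25A22, the glutamate carrier, at 17 CPM against 18.3 to 18.5 CPM.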

How the results depend on the processing

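Of 1174 values of 29 members under the alternatives, 1046 kept their direction and their side of the threshold, 77 were no longer past it, 35 passed it newly and 16 changed sign, none of them a value that had passed. A replicate block gave the same counts of members (24 for the mean change, 18 in Z1flag and 19 in Z2flag), with SLC25A33 in place of SLC25A17 in Z2flag; over the pairs of groups, like-numbered libraries had deviations with r from -0.18 to 0.178, and the labels do not say that numbers pair. Requiring 1.5-fold by glmTreat left 6 members that rose for the mean change, 8 in Z1flag (3 higher, 5 lower) and 11 in Z2flag (7 lower). Those that rose in Z1flag were 11 under upper-quartile scaling and 10 with CPM of at least 5. Those that rose in Z2flag were 10 with only its own libraries. Without the first library of both Z1flag groups, 10 passed in Z1flag (5 lower), and 10 rose in Z2flag. Leaving out 1 library gave 20 to 28 members for the mean change (6 to 13 higher, 14 to 15 lower), 8 to 22 in Z1flag (2 to 9 higher, 6 to 15 lower), 9 to 26 in Z2flag (2 to 11 higher, 5 to 15 lower), 0 to 1 for the difference of changes, and 0 to 0 and 0 to 3 between lines in Sc and Pc. The cause was not tested. Signs changed only in values that had not passed. For the mean change, SLC25A23 was at 0.00 under upper-quartile scaling; SLC25A39 was at 0.15 there, 0.08 with CPM of at least 5, 0.07 without the first Z1flag libraries, and -0.04 as reported, with -0.09 to 0.10 when 1 library was left out. Without 1 library SLC25A24 ranged from -0.03 to 0.22 and SLC25A1 from -0.03 to 0.36. In Z2flag, SLC25A30 was at -0.03 with no filter, -0.01 with the replicate block and with limma voom, and -0.21 to 0.34 without 1 library. Depth limits the 9 members not tested: with no filter, SLC25A2 (lower) and SLC25A27 (higher) passed.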
